A study of Mus musculus with 28 samples.

Results

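Integrins are cell-surface receptors made of an alpha and a beta chain, through which T cells hold on to other cells and to matrix. Beta-1, the product of Itgb1, pairs with alpha-1 (Itga1) to bind collagen and with alpha-4 (Itga4) to bind VCAM-1 and fibronectin. Beta-7 (Itgb7) pairs with alpha-4 to bind MAdCAM-1 of gut vessels and with alpha-E (Itgae, CD103) to bind E-cadherin of epithelium, while beta-2 (Itgb2) pairs with alpha-L (Itgal) to form LFA-1, which binds ICAMs. Alpha-v (Itgav) pairs with beta-1 among other beta chains and binds vitronectin and latent TGF-beta. The 8 genes for these chains were described here out of 19938 genes measured, chosen by name and each represented by the only probe set that carried its symbol alone.

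Expression was measured on 28 Affymetrix mouse arrays, with 1 array per sample part. The cells were TRP1 CD4+ T cells of the strain BwTRP1 Rag1-/-, whose transgenic receptor recognises the melanocyte protein TRP1 and whose donors make no T or B cells with other receptors. All were stimulated for 7 days in culture with irradiated peptide-pulsed splenocytes, as Th17 cells (IL-1, IL-6, IL-21 and TGFβ2 with antibodies to IL-2, IL-4 and IFN-γ, and IL-23 later) or as Th1 cells (IL-12 with antibody to IL-4), and both kinds of culture received IL-2. Thy1.2+ cells were given to B6.PL Thy1.1+ hosts irradiated with 5 Gy and recovered from pooled spleens and inguinal lymph nodes by CD4 enrichment and a Thy1.2 sort, and part of each sample was restimulated with anti-CD3 and anti-CD28 for 2 h. Day 0, the day of transfer, had 1 array for each of Th17 restimulated, Th1 restimulated, Th17 unstimulated and Th1 unstimulated cells. Day 5 had 3 arrays in each of these 4 groups. Day 15 had 4 arrays in each Th17 group and 2 in each Th1 group. The age and sex of the animals are not given in the labels, nor is it said that each replicate is a different mouse. The p-values therefore cover the spread between these samples, which may be technical.

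Values are log2 RMA values, in which 1 unit is a doubling of array signal, and the level of one gene cannot be set against that of another. T cell genes were high on every array, with Cd4 at 11.90 to 13.17, Cd3e at 12.78 to 13.23 and Thy1 at 12.81 to 13.21, and Cd8a was at 6.29 to 7.23. The median gene lay at 7.17 in the mean over the arrays taken after transfer, and without detection calls a value under it is not shown to be above background. Sample 1 of the Th17 cells at day 5 stood apart in the mean of 16 myeloid genes, at 7.91 restimulated and 8.37 unstimulated, against 6.74 to 7.38 on the other 4 Th17 arrays of that day. Calls that rest on it are named with their results. These are bulk samples, in which fewer cells of a type and less RNA per cell cannot be told apart.

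Itga1 and Itgb1 set the 2 types apart after transfer: both were lower in Th17 cells than in Th1 cells at both days, with and without restimulation. Itga1 also rose between day 5 and day 15 in both types. Itgav rose on restimulation and Itgae rose with day in Th1 cells. Itga4, Itgb7, Itgal and Itgb2 passed the test in 0 of the 12 pairwise comparisons in the unpaired fit of all 8 groups after transfer. Under alternative settings, given further on, some of them passed. A gene is said to have passed when its limma adjusted p, over all 19938 genes, was under 0.05.

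**Figure D1:**
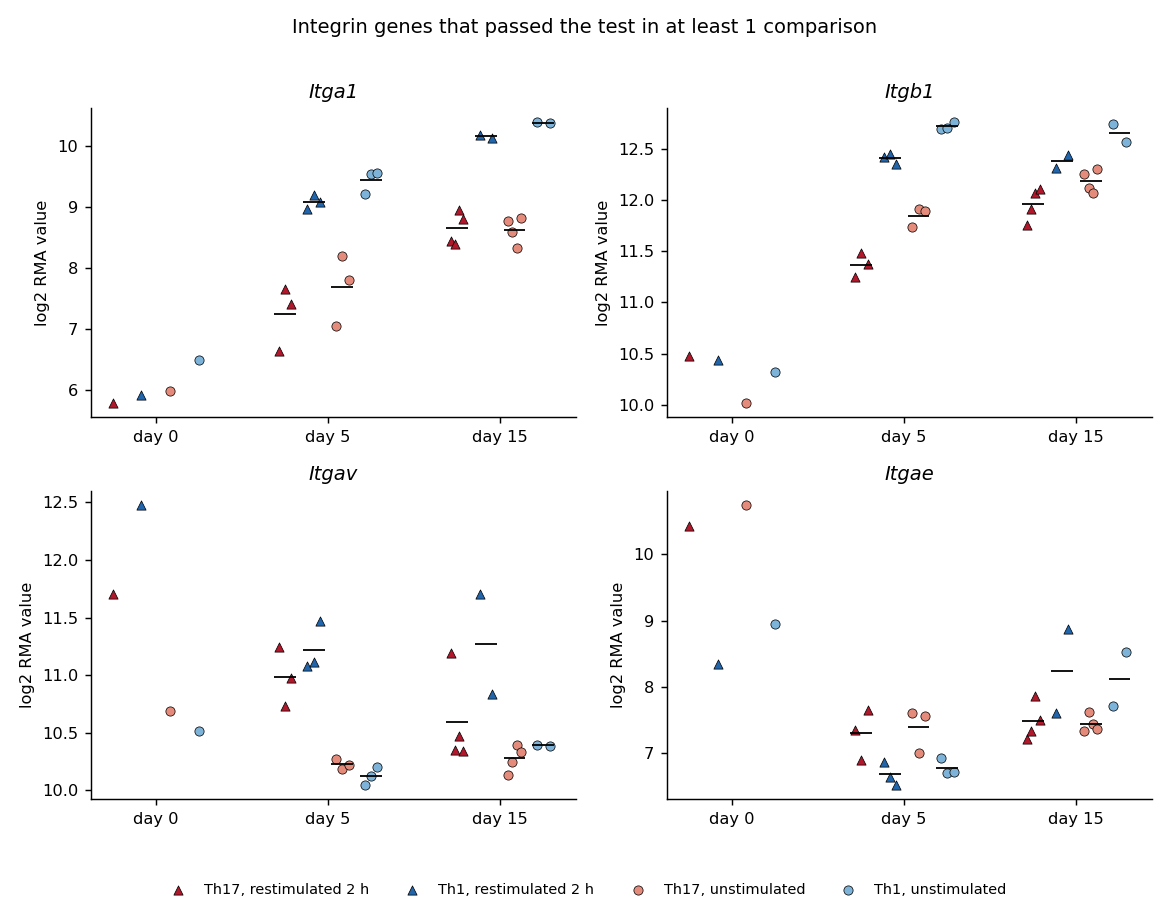
Log2 RMA value of Itga1, Itgb1, Itgav and Itgae on each of 28 arrays, by day after transfer. Within a day the groups are, left to right, Th17 restimulated, Th1 restimulated, Th17 unstimulated and Th1 unstimulated, each point is an array and a bar is the mean of a group of 2 to 4. The Th17 arrays of Itga1 and Itgb1 lie under the Th1 arrays of the same condition at day 5 and day 15, and the restimulated arrays of Itgav lie above the unstimulated ones at day 5.

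The stretches upstream of 3 of these genes are shown because Itga1 and Itgb1 moved together and Itgav moved apart from them. They are the 250 bases before the annotated start, 5′ to 3′ on the strand of the gene, from RefSeq (GRCm38.p6), at chr13:115101965-115102214 on the minus strand for Itga1, chr8:128685404-128685653 on the plus strand for Itgb1 and chr2:83724147-83724396 on the plus strand for Itgav. Promoters were matched for 5 of the 8 genes, the others with a match being Itga4 and Itgb7, and Itgae, Itgal and Itgb2 had none in the table. Capitals mark a match, on either strand, to 1 of 6 motifs.
Itga1: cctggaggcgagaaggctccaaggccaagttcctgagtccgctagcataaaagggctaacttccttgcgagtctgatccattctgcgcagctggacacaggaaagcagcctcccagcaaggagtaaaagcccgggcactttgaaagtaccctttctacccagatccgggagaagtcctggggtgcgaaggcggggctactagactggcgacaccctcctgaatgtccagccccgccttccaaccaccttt
Itgb1: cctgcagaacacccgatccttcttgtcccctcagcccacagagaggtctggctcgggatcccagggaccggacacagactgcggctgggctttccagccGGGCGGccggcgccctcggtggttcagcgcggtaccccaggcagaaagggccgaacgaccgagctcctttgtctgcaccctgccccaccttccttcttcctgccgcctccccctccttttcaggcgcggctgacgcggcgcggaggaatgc
Itgav: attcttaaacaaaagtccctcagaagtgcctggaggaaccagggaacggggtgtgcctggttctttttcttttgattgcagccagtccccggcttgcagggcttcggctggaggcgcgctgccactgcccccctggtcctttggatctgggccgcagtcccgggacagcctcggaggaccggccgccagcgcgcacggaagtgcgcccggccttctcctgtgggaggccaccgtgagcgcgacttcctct
The motifs were TCACACC (T-box), TGTGGT (Runx), TGAGTCA (AP-1), GGAAAA (NFAT), AGGTCA (a ROR half-site) and GGGCGG (Sp1), none of which contains another. They are held by 3.33%, 14.0%, 4.46%, 20.4%, 14.0% and 32.7% of the 32851 promoters of the same length, in that order. Itgb1 held 1 Sp1 match, which starts 151 bases before the start. Itga1, Itgav and Itgb7 held 0 matches to these 6 motifs. Itga4 held 3, to the T-box motif at 165 bases, the Sp1 motif at 114 and the Runx motif at 60. A match is a run of letters and not evidence of binding, and 0 matches says only that these letters are not in this window.

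Itga1 (probe set 10412298) encodes alpha-1, the collagen-binding chain that activated T cells acquire. In unstimulated cells at day 5, Th17 arrays had 7.05, 8.20 and 7.81 and Th1 arrays 9.21, 9.54 and 9.56. In unstimulated cells at day 15, Th17 arrays had 8.77, 8.59, 8.33 and 8.82 and Th1 arrays 10.38 and 10.37. The highest Th17 array lay more than 1 log2 unit under the lowest Th1 array of the same day. Restimulated Th17 arrays had 6.65, 7.66 and 7.42 at day 5, against 8.96, 9.20 and 9.07 in Th1. At day 15 they had 8.45, 8.39, 8.95 and 8.81, against 10.17 and 10.12 in Th1. The types did not overlap in any of the 4 settings.

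In the means, Itga1 was 3.37-fold lower in unstimulated Th17 cells at day 5, at 7.69 ± 0.59 against 9.44 ± 0.19 in Th1 (SD, n = 3 each, limma adjusted p = 2.58e-05). At day 15 it was 3.36-fold lower, at 8.63 ± 0.22 (n = 4) against 10.38 ± 0.0046 (n = 2, adjusted p = 6.42e-05). Restimulated, it was 3.56-fold lower at day 5 (7.24 ± 0.53 against 9.08 ± 0.12, n = 3 each, adjusted p = 1.49e-05). Restimulated at day 15, it was 2.83-fold lower (8.65 ± 0.27, n = 4, against 10.15 ± 0.037, n = 2, adjusted p = 0.00039). The difference between the types did not itself pass a test of change between the days, at 0.0026 log2 units unstimulated (adjusted p = 0.998) and 0.33 restimulated (adjusted p = 0.842). All 4 calls were kept under every alternative setting and with any 1 array left out.

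Itgb1 (probe set 10576661) encodes beta-1, the partner of alpha-1 and alpha-4. Unstimulated Th17 arrays had 11.73, 11.91 and 11.89 at day 5, against 12.70, 12.70 and 12.76 in Th1. At day 15 they had 12.25, 12.12, 12.06 and 12.30, against 12.75 and 12.57 in Th1. The types did not overlap on either day, and the gap was narrower at day 15. Restimulated Th17 arrays had 11.25, 11.48 and 11.38 at day 5, against 12.42, 12.45 and 12.35 in Th1. At day 15 they had 11.76, 11.91, 12.07 and 12.10, against 12.31 and 12.44 in Th1. Here too every Th17 array lay under every Th1 array.

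At day 5 Itgb1 was 1.83-fold lower in unstimulated Th17 cells (11.85 ± 0.098 against 12.72 ± 0.034 in Th1, SD, n = 3 each, limma adjusted p = 2.38e-06). In restimulated cells of day 5 it was 2.06-fold lower (11.37 ± 0.12 against 12.41 ± 0.049, n = 3 each, adjusted p = 1.3e-07). By day 15 the difference was 1.39-fold unstimulated (12.18 ± 0.11, n = 4, against 12.66 ± 0.13, n = 2, adjusted p = 0.00748) and 1.34-fold restimulated (11.96 ± 0.16, n = 4, against 12.38 ± 0.091, n = 2, adjusted p = 0.0138). The narrowing passed the test among restimulated arrays, at 0.62 log2 units (adjusted p = 0.0334), but not among unstimulated ones, at 0.40 (adjusted p = 0.204). The restimulated call was lost when any 1 of 9 of the 12 arrays was left out, with adjusted p from 0.0517 to 0.112. Without both parts of Th17 sample 1 of day 5 its adjusted p was 0.103. Among the 8 members, 1 passed in the restimulated interaction with day against 0.943% of all genes, and 0 in the unstimulated one against 1.14%, with 2 at an unadjusted p under 0.05. The calls between the types at day 15 were lost without Th1 unstimulated replicate 1 (adjusted p = 0.17) and without Th1 restimulated replicate 2 (adjusted p = 0.093).

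Itga1 and Itgb1 were the only members to pass in 3 of the 4 comparisons of the types, so that 2 of 8 passed in each, all lower in Th17. The share of all genes that passed was 3.63% in unstimulated cells at day 5, 4.15% in unstimulated cells at day 15 and 3.98% in restimulated cells at day 5. In restimulated cells at day 15 Itgav passed as well, making 3 of 8 against 6.43% of all genes. The median difference over the 8 members, Th17 minus Th1, ran from -0.35 to -0.11 log2 units, against -0.04 to 0.02 over all genes. A share of 8 genes moves in steps of 1 gene, and the other integrin genes are given further on.

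**Figure D2:**
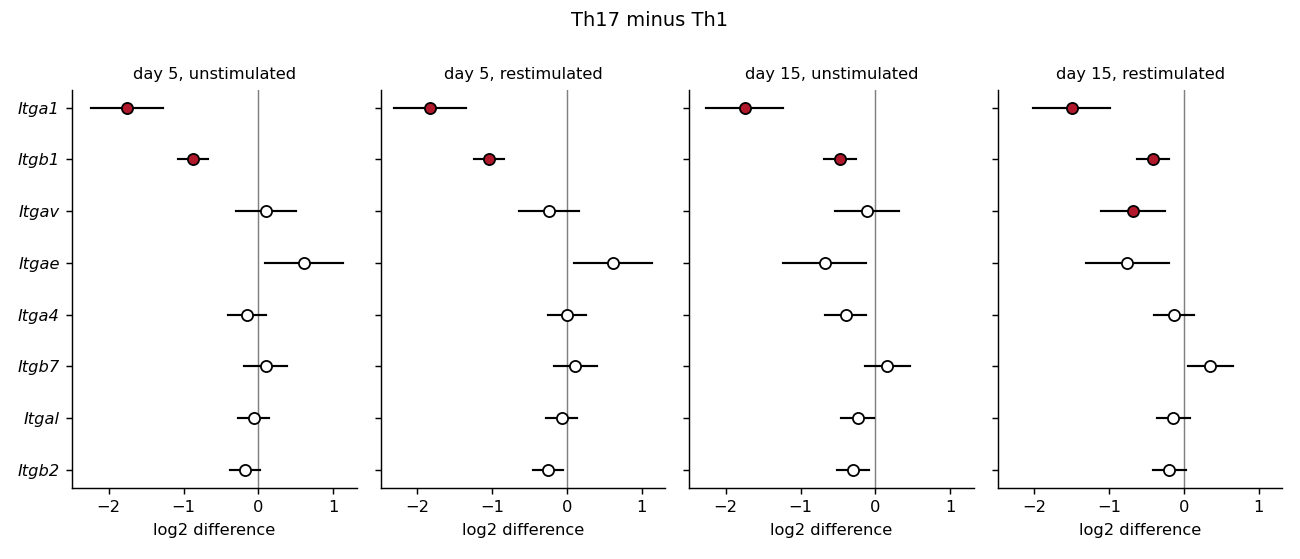
Log2 difference, Th17 minus Th1, for the 8 members at each day and condition, with 95% confidence intervals from the limma fit. Filled points passed at adjusted p under 0.05, and Itga1 and Itgb1 lie left of 0 in all 4 panels.

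Markers of other cells also differed between the types. The myeloid mean was 7.31 to 8.37 in unstimulated Th17 cells at day 5 against 6.47 to 6.77 in Th1, and 7.01 to 7.74 against 6.59 to 6.60 at day 15, with 4 of 16 myeloid genes higher in Th17 at day 5, and 3 higher and 1 lower at day 15. With the myeloid mean as a covariate, the 4 calls of Itga1 were kept, while those of Itgb1 at day 15 were not (adjusted p = 0.0676 unstimulated and 0.0507 restimulated). The mean of 6 NK cell genes was 5.97 to 6.07 in unstimulated Th17 cells at day 15, against 6.80 and 7.24 in Th1, with 4 of the 6 lower in Th17. At day 5 that mean overlapped, at 5.99 to 6.86 in Th17 and 5.98 to 6.31 in Th1. In restimulated cells at day 15 the mean of 7 erythroid genes was 8.45 to 8.78 in Th17 against 9.17 and 9.66 in Th1, with 6 of the 7 lower in Th17. There the mean of 8 regulatory T cell genes was 9.42 to 9.51 in Th17 against 10.15 and 10.34 in Th1, with 5 of the 8 lower in Th17. With the erythroid mean as a covariate, the restimulated day 15 calls of Itgb1 (adjusted p = 0.218) and Itgav (adjusted p = 0.171) were lost, and the 4 of Itga1 were kept. The part of NK cell and regulatory T cell RNA in the differences between the types was not tested.

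Over the 24 arrays taken after transfer, Itga1 and Itgb1 had a Pearson correlation of 0.88, and of 0.73 after each group's mean was taken out. These arrays share types, days and parts of the same samples, so the value is a description. In the groups, both were highest in Th1 cells, but the order by day differed. Itga1 ran from Th1 at day 15 through Th1 at day 5 and Th17 at day 15 to Th17 at day 5, each step with no overlap between the ranges of days and types. For Itgb1 the ranges of Th1 cells at day 5 and day 15 overlapped in each condition, and the means of Th17 cells at day 15 lay between these and the means of Th17 cells at day 5.

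**Figure D3:**
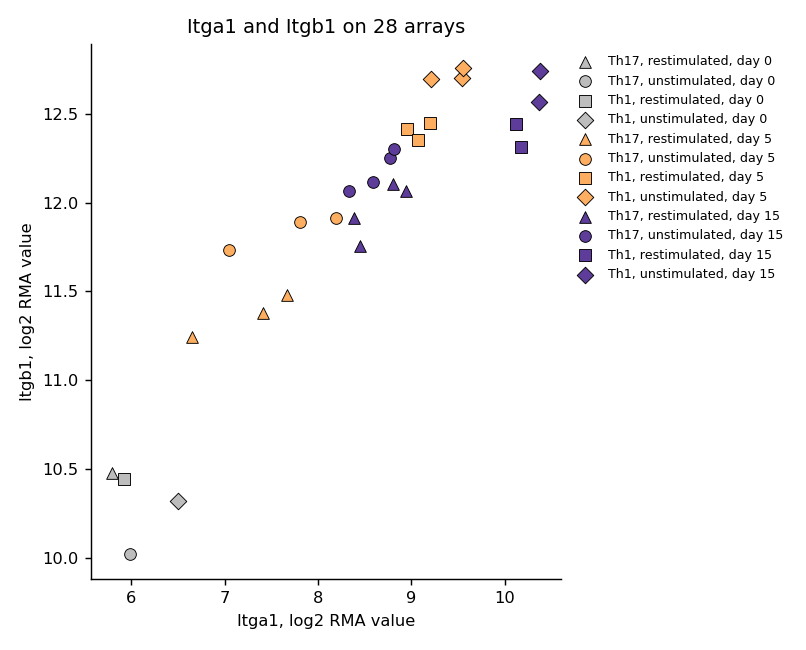
Log2 RMA value of Itga1 (x) against Itgb1 (y) on all 28 arrays, with colour for the day and symbol for type and condition. The 4 day 0 arrays lie lowest on both axes, the Th17 arrays of day 5 come next on the Itga1 axis, and the Th1 arrays of day 15 lie farthest right.

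Between day 5 and day 15 Itga1 rose 1.92-fold in unstimulated Th17 cells (limma adjusted p = 0.00685) and 2.65-fold in restimulated ones (adjusted p = 0.000166). In Th1 cells it rose 1.92-fold unstimulated (adjusted p = 0.0135) and 2.10-fold restimulated (adjusted p = 0.00541). All arrays of day 15 lay above all arrays of day 5 of the same type and condition, as the values above show. Itgb1 rose in Th17 cells, 1.26-fold unstimulated (adjusted p = 0.0202) and 1.51-fold restimulated (adjusted p = 0.000156). In Th1 cells its differences, day 15 minus day 5, were -0.06 (adjusted p = 0.812) and -0.03 (adjusted p = 0.929) log2 units. Without Th17 day 5 unstimulated replicate 1, the unstimulated Th17 calls of both genes were lost (adjusted p = 0.0827 for Itga1 and 0.127 for Itgb1), with that of Itga1 at 0.62 log2 units against 0.94 with it. The unstimulated Th1 call of Itga1 was lost without Th1 day 5 replicate 1 (0.065), day 15 replicate 1 (0.083) or day 15 replicate 2 (0.0957).

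In each of the 4 comparisons of the days 2 of 8 members passed, all higher at day 15. Among all genes the share higher at day 15 was 4.37% in Th17 unstimulated, 5.05% in Th17 restimulated, 7.33% in Th1 unstimulated and 7.07% in Th1 restimulated cells. Red cell genes moved with the day on the same arrays: the mean of 7 measured erythroid genes was 8.45 to 10.02 at day 15 and 6.72 to 7.15 at day 5, and 6 or 7 of the 7 were higher in each comparison. Because this mean does not overlap between the days, its part and that of the day cannot be told apart. With it as a covariate 0 of the 8 day calls were kept.

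On the day of transfer both genes were lower than on any later array, with 1 array per group and so no spread. Itga1 had 5.80 in Th17 and 5.93 in Th1 cells restimulated, and 5.99 in Th17 and 6.50 in Th1 cells unstimulated, all under the median gene. Itgb1 had 10.48 in Th17 and 10.44 in Th1 restimulated, and 10.02 in Th17 and 10.32 in Th1 unstimulated. From day 0 to day 5 the unstimulated means differed by 1.69 log2 units in Th17 and 2.94 in Th1 for Itga1, and by 1.83 and 2.40 for Itgb1, day 5 minus day 0. Since the day 0 values of Itga1 are not shown to be above background, its differences compare RMA values and not amounts of transcript, and no test covers day 0. Platelet and megakaryocyte genes had a mean of 9.82 to 10.46 at day 0 and of 6.30 to 6.59 at day 5, and their part in the day 0 levels was not tested.

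Itgav (probe set 10473281) encodes alpha-v, which binds proteins with an RGD sequence. Restimulated Th17 arrays of day 5 had 11.25, 10.73 and 10.98, against 10.28, 10.19 and 10.22 unstimulated. Restimulated Th1 arrays of day 5 had 11.08, 11.12 and 11.47, against 10.04, 10.12 and 10.20 unstimulated. Every restimulated array of day 5 lay above every unstimulated one. At day 15 restimulated Th17 arrays had 11.19, 10.35, 10.47 and 10.34, against 10.14, 10.25, 10.39 and 10.33 unstimulated. Restimulated Th1 arrays of day 15 had 11.71 and 10.84, against 10.39 and 10.39 unstimulated. The Th17 groups of day 15 overlapped and the Th1 groups did not, and replicate 1 was the highest restimulated array in both types.

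Itgav rose on restimulation 1.69-fold in Th17 cells at day 5 (limma adjusted p = 0.017), 2.14-fold in Th1 cells at day 5 (adjusted p = 0.000587) and 1.84-fold in Th1 cells at day 15 (adjusted p = 0.0256). In Th17 cells at day 15 the difference was 0.31 log2 units (95% interval -0.04 to 0.66, adjusted p = 0.208). The response did not differ between the types by the test, at -0.34 log2 units at day 5 (adjusted p = 1) and -0.57 at day 15 (adjusted p = 0.795), Th17 minus Th1. In these interactions of type with restimulation 0 of 8 members passed at either day by limma and 0 had an unadjusted p under 0.05, against 0.0201% of all genes that passed at day 5 and 0% at day 15. The Th1 call at day 5 was kept in every alternative. The Th1 call at day 15 was lost without restimulated replicate 1 (0.45 log2 units against 0.88 with it, adjusted p = 0.377) or either unstimulated array (0.129 and 0.128). The Th17 call at day 5 was lost without replicate 1 or 3 of either part (0.051 to 0.098), and without both parts of sample 1 (0.202).

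In restimulated cells at day 15, Itgav was 1.60-fold lower in Th17 than in Th1 (10.59 ± 0.41, n = 4, against 11.27 ± 0.61, n = 2, SD, limma adjusted p = 0.0475). The 2 groups overlapped, since Th17 replicate 1 at 11.19 lay above Th1 replicate 2 at 10.84. Without Th1 replicate 1 the difference was -0.25 log2 units (adjusted p = 0.635) and without Th1 replicate 2 it was -1.12 (0.00234), against -0.68 with both, and without Th17 replicate 2, 3 or 4 the adjusted p was 0.136, 0.11 and 0.127. The call was also lost with arrays centred on their medians (0.0903), with cyclic loess (0.0767), with the replicate block (0.143), with the myeloid covariate (0.0954), and with only the groups compared (0.385). At day 0 Itgav had 11.70 in Th17 and 12.48 in Th1 cells restimulated, and 10.69 in Th17 and 10.52 in Th1 cells unstimulated. These were the highest restimulated values in each type, at 1.01 log2 units above the unstimulated part in Th17 and 1.96 in Th1.

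Itgb1 moved the other way on restimulation, 1.39-fold lower in Th17 cells at day 5 (limma adjusted p = 0.00373) and 1.24-fold lower in Th1 cells at day 5 (adjusted p = 0.0365). The restimulated and unstimulated arrays of day 5, given above, did not overlap in either type. The Th1 call was lost with any 1 of the 6 arrays left out, with adjusted p from 0.0587 to 0.136. At day 15 the differences of -0.22 in Th17 (adjusted p = 0.0724) and -0.28 in Th1 (adjusted p = 0.179) did not pass. So 2 of 8 members passed at day 5 in each type, 1 each way, against 8.07% of all genes in Th17 and 13% in Th1, and 1 of 8 in Th1 at day 15, against 7.29%. In Th17 at day 15, 0 of 8 passed and 2 had an unadjusted p under 0.05, against 17.5% of all genes that passed.

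**Figure D4:**
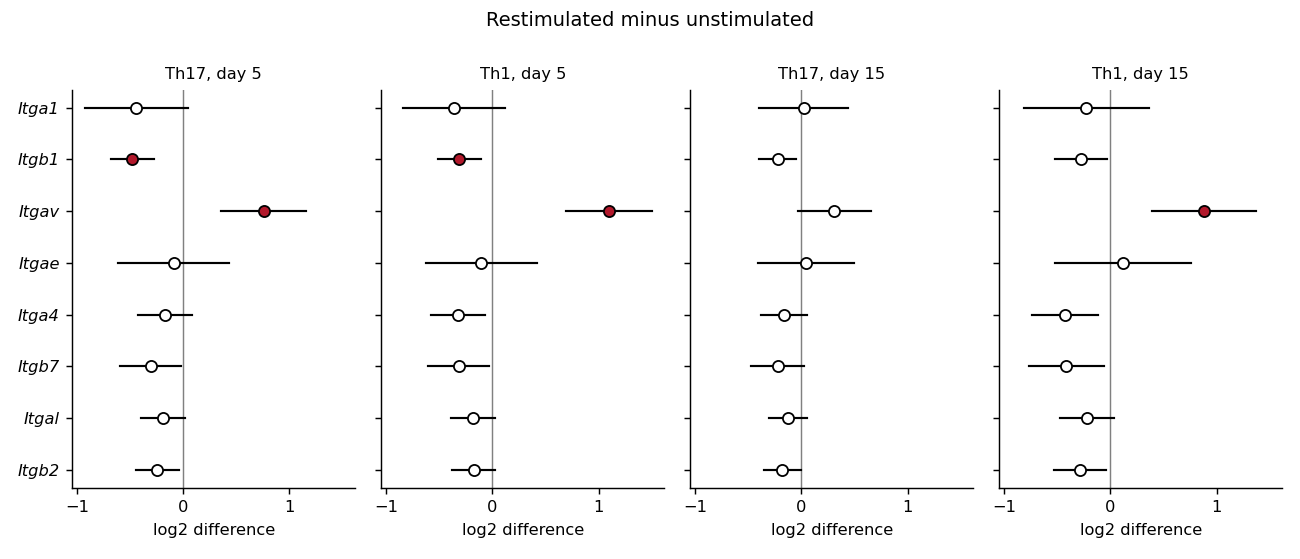
Log2 difference, restimulated minus unstimulated, for the 8 members in each type and day, with 95% confidence intervals from the limma fit without pairing. Filled points passed at adjusted p under 0.05: those of Itgav lie right of 0 in 3 panels and those of Itgb1 left of 0 in the day 5 panels.

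At day 5 arrays with the same replicate number deviated together, so restimulation was tested there a further time within replicates, by a block. In Th17 cells the block added Itga1, 0.44 log2 units lower on restimulation (adjusted p = 0.0101), to Itgav and Itgb1. In Th1 cells it added 3 members that were lower on restimulation, Itga1 (adjusted p = 0.00802), Itga4 (adjusted p = 0.0134) and Itgb7 (adjusted p = 0.0173). These same differences had adjusted p of 0.391, 0.0841 and 0.151 in the fit of all groups without the block. In that fit 8.07% of all genes passed in Th17 and 13% in Th1. The share with the block is not given here, so the added members are not read as particular to integrins.

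Itgae (probe set 10378286) encodes alpha-E, the chain that holds T cells to epithelium. In unstimulated cells at day 5, Th17 arrays had 7.61, 7.01 and 7.56 and Th1 arrays 6.93, 6.70 and 6.72. At day 15, Th17 arrays had 7.33, 7.62, 7.45 and 7.36 and Th1 arrays 7.72 and 8.53. Th17 lay above Th1 at day 5 and under it at day 15, with no overlap at either. Restimulated Th17 arrays had 7.34, 6.90 and 7.66 at day 5, against 6.87, 6.65 and 6.52 in Th1. Restimulated at day 15 they had 7.22, 7.34, 7.87 and 7.50, against 7.60 and 8.88 in Th1. The types overlapped at day 15 restimulated, and all Th1 values of day 5 lay under the median gene.

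The differences between the types did not pass, at 0.61 (limma adjusted p = 0.261) and 0.62 (0.262) log2 units at day 5, and -0.68 (0.198) and -0.76 (0.107) at day 15, unstimulated first. Nor did the change in that difference between the days pass, at -1.29 unstimulated (95% interval -2.05 to -0.53, adjusted p = 0.0911) and -1.38 restimulated (adjusted p = 0.0735). The unstimulated difference between the types at day 5 did pass with only the groups compared (limma adjusted p = 0.0457) and with the replicate block (0.0377). Replicate numbers were not found to pair those arrays. Within Th1 cells Itgae rose between day 5 and day 15, 2.53-fold unstimulated (8.12 ± 0.57, n = 2, against 6.78 ± 0.13, n = 3, SD, adjusted p = 0.00151) and 2.95-fold restimulated (8.24 ± 0.90, n = 2, against 6.68 ± 0.18, n = 3, adjusted p = 0.000358). The Th1 values of day 5 are not shown to be above background, so these folds compare RMA values and not amounts of transcript. The unstimulated call was lost without Th1 day 15 replicate 2 (adjusted p = 0.0977), the array at 8.53. Without restimulated Th1 day 15 replicate 2, the array at 8.88, the restimulated difference was 0.92 log2 units (adjusted p = 0.039), against 1.56 with it. In Th17 cells the differences were 0.05 (adjusted p = 0.913) and 0.18 (adjusted p = 0.694).

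NK cell genes were also higher on the Th1 arrays of day 15, with means of 6.80 and 7.24 unstimulated and 6.39 and 6.79 restimulated, against 5.98 to 6.31 and 5.82 to 6.06 at day 5. In both parts replicate 2 had the higher Itgae, and the higher mean of every marker list but the erythroid one. Of the 6 NK genes measured, 3 passed as higher at day 15 unstimulated and 2 restimulated. Their part in the Itgae difference was not tested. Regulatory T cell genes had means of 9.53 and 9.99 in unstimulated Th1 cells at day 15 and 9.45 to 9.50 at day 5, with 2 of 8 higher. Dendritic cell genes had means of 6.99 and 7.07 unstimulated and 7.00 and 7.10 restimulated. At day 5 these were 6.67 to 6.80 and 6.66 to 6.79, and 1 of 9 was higher in each condition. Platelet and megakaryocyte genes had 7.31 and 7.86 unstimulated, against 6.31 to 6.42 at day 5, with 4 of 5 higher. The part of these other lists was not tested either.

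Itgae was highest on the day of transfer, in Th17 cells, at 10.42 restimulated and 10.75 unstimulated, against 8.35 and 8.94 in Th1 cells. The difference of 2.08 log2 units restimulated and 1.81 unstimulated comes from single arrays. The unstimulated mean of day 5 minus day 0 was -3.36 log2 units in Th17 and -2.16 in Th1. Dendritic cell genes, a class of cell that can carry Itgae, had a mean of 7.51 to 7.91 at day 0 and 6.62 to 6.85 at day 5, and the myeloid mean was 8.72 and 9.14 in Th17 and 6.67 and 6.88 in Th1 at day 0. Their part was not tested.

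Itga4 (probe set 10473125) and Itgb7 (probe set 10432957) encode the chains of the gut-homing integrin. Itga4 lay between 11.96 and 12.80 on the 24 arrays taken after transfer, with neighbouring groups overlapping throughout the order of the 8 means. At day 0 it had 9.15 in Th17 and 9.12 in Th1 cells restimulated, and 10.43 in Th17 and 10.05 in Th1 cells unstimulated. All 4 values lay under all 24 later ones, and the unstimulated mean of day 5 was 2.12 log2 units above day 0 in Th17 and 2.66 in Th1. Restimulated parts at day 0 were 1.28 log2 units lower in Th17 and 0.93 lower in Th1, again on single arrays.

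Among unstimulated cells at day 15, Itga4 had 12.31, 12.33, 12.46 and 12.38 on Th17 arrays and 12.74 and 12.80 on Th1 arrays. The types did not overlap, but the difference of -0.40 log2 units (95% interval -0.67 to -0.13) had a limma adjusted p of 0.0928.

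Itgb7 lay between 11.21 and 12.23 after transfer, and at day 0 at 10.30 in Th17 and 10.22 in Th1 cells restimulated and 11.05 in Th17 and 11.20 in Th1 cells unstimulated. Its lowest array after transfer was Th1 restimulated replicate 1 of day 15, at 11.21 against 11.97 on replicate 2. The restimulated difference between the types at day 15, 0.35 log2 units (adjusted p = 0.199), turned on these arrays: without replicate 1 it was -0.03 (adjusted p = 0.95) and without replicate 2 it was 0.73 (adjusted p = 0.00184). Over the 24 arrays Itgb7 had a Pearson correlation of -0.89 with Itgav, and of -0.83 with group means taken out, both as descriptions. It had 0.38 with its partner Itga4 and 0.10 with its partner Itgae, and 0.45 and 0.49 with group means taken out.

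Itgal (probe set 10557591) and Itgb2 (probe set 10364262), the chains of LFA-1, each stayed within a range of 1 log2 unit after transfer. Itgal lay between 12.31 and 13.04 after transfer and 12.11 and 12.48 at day 0. Itgb2 lay between 12.07 and 12.94 after transfer and 11.65 and 12.22 at day 0. For both the highest group mean was that of unstimulated Th1 cells at day 15 (13.01 ± 0.044 and 12.92 ± 0.033, n = 2) and the lowest that of restimulated Th17 cells at day 5 (12.50 ± 0.17 and 12.29 ± 0.23, n = 3). The largest of their differences between the types was that of Itgb2 in unstimulated cells at day 15, at -0.30 log2 units (95% interval -0.51 to -0.09, limma adjusted p = 0.123). Over the 24 arrays the pair had a Pearson correlation of 0.89, and of 0.84 with group means taken out.

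**Figure D5:**
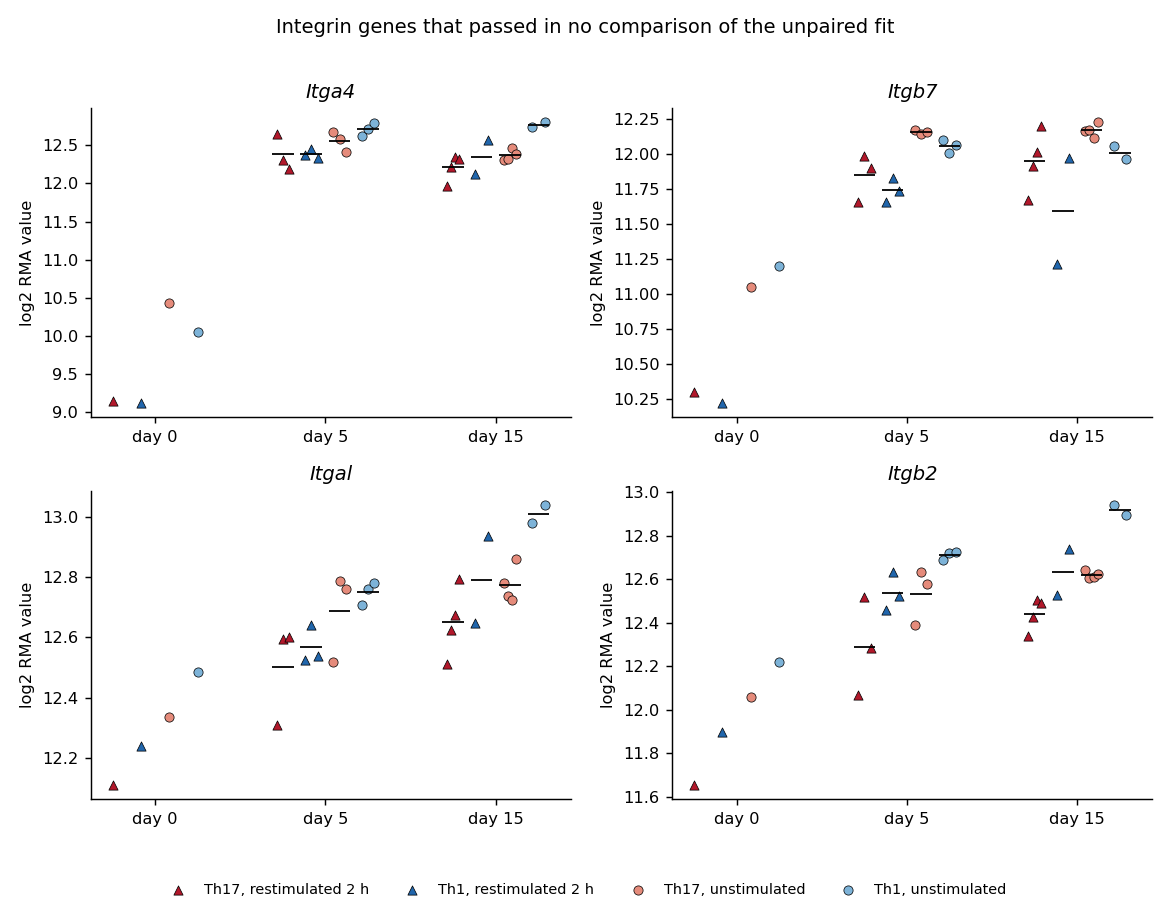
Log2 RMA value of Itga4, Itgb7, Itgal and Itgb2 on each of 28 arrays, by day after transfer, drawn as for the genes that passed. The day 0 arrays of Itga4 lie at 9.12 to 10.43, under all later ones at 11.96 to 12.80, and each panel has its own axis.

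The other 18 integrin genes, all measured, moved both ways between the types. In unstimulated cells at day 5, 5 were higher in Th17 and 1 lower, against 3.63% of all genes that passed either way. In restimulated cells at day 5, 5 were higher and 2 lower, against 3.98%. At day 15, 2 were higher and 3 lower in each condition, against 4.15% unstimulated and 6.43% restimulated. The list's median lay between -0.08 and 0.05 log2 units in all 4. Itga7, a chain that pairs with beta-1 to bind laminin, was higher in Th17 cells in all 4 comparisons, and Itga3, another such chain, in both comparisons of day 5 and in restimulated cells at day 15. In restimulated cells at day 5, Itga3 was 4.35-fold higher (9.34 ± 0.21 against 7.22 ± 0.031, SD, n = 3 each, limma adjusted p = 1.79e-08) and Itga7 1.61-fold higher (adjusted p = 0.00031). Itga5, the fibronectin-binding partner of beta-1, was 2.05-fold higher in unstimulated Th17 cells at day 5 (7.82 ± 0.15 against 6.78 ± 0.064, n = 3 each, adjusted p = 1.19e-05), a fold of RMA values whose Th1 side lay under the median gene. Itgax, a partner of beta-2, was lower in Th17 cells in all 4 comparisons, by 2.13-fold to 2.98-fold (adjusted p from 0.00162 to 0.0235). Itgax and Itgam are also markers of dendritic and myeloid cells.

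Of 10 genes for the ligands on cells, 0 passed between the types at day 5 by limma, against 3.63% of all genes unstimulated and 3.98% restimulated, and 3 and 1 had an unadjusted p under 0.05. At day 15, 1 of the 10 passed unstimulated (Icam1) against 4.15% and 2 restimulated (Icam1 and Cdh1) against 6.43%, all lower in Th17. The means of Cdh1 there, 6.57 in Th17 and 6.95 in Th1, lay under the median gene and are not shown to be above background. Icam1, a ligand of LFA-1 that T cells carry too, was 1.88-fold lower in unstimulated Th17 cells at day 15 (9.97 ± 0.097, n = 4, against 10.88 ± 0.18, n = 2, SD, limma adjusted p = 0.000735). It rose on restimulation in Th17 cells at both days and in Th1 cells at day 5, most in Th17 cells at day 5 (2.13-fold, adjusted p = 6.1e-05). Of 38 measured genes for the activation and linkage of integrins, 0 passed between the types at day 5 by limma, against the same shares, and 6 unstimulated and 7 restimulated had an unadjusted p under 0.05. At day 15, 1 was higher and 1 lower in unstimulated Th17 cells, against 4.15% of all genes that passed either way. In restimulated ones 1 was higher and 3 lower, against 6.43%. On restimulation 5 of the 38 passed in Th17 at day 5 and 7 at day 15, all lower. In Th1 cells 8 passed at day 5 and 5 at day 15, also all lower. In the same order, 8.07%, 17.5%, 13% and 7.29% of all genes passed either way. The shares that fell were 4.08%, 11.1%, 8.96% and 4.63%. Kif14 fell most at day 5 in both types (adjusted p = 0.00337 in Th17 and 0.000265 in Th1). Sipa1 was also lower in both (-0.47 in Th17 and -0.53 log2 units in Th1, adjusted p = 0.0443 and 0.017). The list was not divided into genes that favour and genes that oppose activation. Lower at day 5 in both types too was Apbb1ip, which encodes the RIAM adaptor that brings talin to integrins (-0.60 in Th17 and -0.44 log2 units in Th1, adjusted p = 0.00159 and 0.00955). Tln1, for talin itself, fell by 0.38 log2 units in Th17 cells at day 5 (adjusted p = 0.0161).

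The genes most like each member over the 24 arrays were sought among 9961 genes above the median, with the 8 members left out. For Itga1 they were Sytl2 (Pearson r = 0.97), Klrg1 (0.95) and Ifi214 (0.94), and for Itgb1 Nrp1 (0.92), Arhgap18 (0.92) and Tnfsf10 (0.92). For Itgav they were Csf2 (0.96), Plagl1 (0.96) and Spry1 (0.95), and for Itgae Ddx17 (0.90), Jchain (0.88) and Bcas3 (0.87). For Itga4 they were Slc25a53 (0.87), Trp53i11 (0.86) and Nsmaf (0.85), and for Itgb7 Snap47 (0.97), Grk6 (0.95) and Slc35c2 (0.94). Itgal was most like Ptpre (0.94), Tbc1d9b (0.93) and St3gal1 (0.90), and Itgb2 most like Ttc7b (0.94), Ctsd (0.92) and Dock5 (0.91). All these values share the arrays, days and types and describe them only.

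Nrp1 is also the neighbour of Itgb1 on chromosome 8 in the RefSeq annotation (GRCm38.p6). It encodes neuropilin-1, a co-receptor for semaphorins and VEGF, and was lower in Th17 cells in all 4 comparisons. The differences were -1.51 and -1.52 log2 units at day 5, unstimulated and restimulated (limma adjusted p = 1.95e-06 and 1.61e-06), and -1.06 and -0.95 at day 15 (0.000537 and 0.0013). The neighbour on the other side, Ccdc7a, lay at 2.68 to 3.24 on the 28 arrays and had a correlation of 0.25 with Itgb1. The neighbours of Itga1 on chromosome 13 are Itga2, another collagen-binding chain (r = 0.69), and Pelo (r = 0.82). Itga2 passed in 1 of the 4 comparisons of the types, restimulated at day 5, at -0.67 log2 units (adjusted p = 0.0254).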

How the data were processed

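The authors deposited log2 RMA values, made with Affymetrix Expression Console per the submitters' processing notes, with no version given in the sources used here. The labels do not name the arrays that were normalised jointly, and the medians of single arrays were 6.77 to 7.09. Of 35556 probe sets, 21789 carried 1 symbol in the platform annotation, 1621 several and 12146 none, and only the first were used, with the highest-mean probe set for the 999 genes that had several. This left 19938 genes. The number of arrays limits the precision.

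R 4.3.3 and limma 3.58.1 were used to fit 1 coefficient per group with lmFit and eBayes over the 8 groups of day 5 and day 15 (24 arrays, 16 residual degrees of freedom). There were 12 pairwise comparisons and 4 interactions, each adjusted by Benjamini-Hochberg over all genes. The 4 day 0 arrays are values only. The fit was tested on simulated data.

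All 8 members are named, with up to 4 passing genes of each pathway list by size and the 3 genes most like each member. Likeness is the Pearson correlation over 24 arrays among genes above the median, with the members left out. Itga2, Ccdc7a and Pelo are named as neighbours. Members, lists, rules and alternatives were chosen with earlier results of these data known. A list of 39 genes for integrin activation and linkage had 38 measured, and the B cell list (7 of 8 measured) had a mean of 5.73 to 6.26 and the CD8 T cell list of 7.12 to 8.22 over all arrays.

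Replicate numbers were taken to pair arrays where deviations from group means of every same-numbered pair, over 9969 genes, correlated above 0.1 with at least 3 pairs. At day 5 this was so between the types when restimulated (0.22 to 0.48) and on restimulation of Th17 (0.38 to 0.47) and of Th1 (0.16 to 0.22).

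Alternatives were a fit of only the groups compared, the replicate block, a random block for divided samples, centring each array on its median, cyclic loess, averaging a gene's probe sets, a filter to genes above the median, myeloid and erythroid marker means as covariates, no Th17 sample 1 of day 5, and each array left out in turn. A lone array was then assumed to vary like the other groups.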

Additional observations from a re-analysis of the deposited data

Results flagged for a closer look

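Itgav on the restimulated Th17 array of day 15, replicate 1, was at 11.19, far from the other 3 arrays of its group at 10.34 to 10.47. Its gap to the nearest was 0.84 of the group's range, above Dixon's 95% critical value for 4 samples. It was 1 of 16 such groups tested, and chance alone picks about 1 in 20.

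For Itgb1 among restimulated arrays, the difference between Th17 and Th1 changed between day 5 and day 15 by 0.62 log2 units in the interaction test (limma adjusted p = 0.0334), a call that several arrays decide, as given above.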

How the results depend on the processing

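Of the 23 member differences that passed, 8 kept their call under every setting run. A call was ended with its direction kept in 64 of the 360 settings of a single member. In 1 further setting the direction turned and the call was lost too. That was for Itgb1 in unstimulated Th17 cells at day 15 against day 5 (-0.1447 with the erythroid covariate, limma adjusted p = 0.787), and the cause was not tested. Scalings moved the median of all genes by at most 0.0793 log2 units.

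The number of members that passed changed by more than 1.5 times, or to or from 0, as follows, and no cause was tested. Fitting only the groups compared, which leaves fewer arrays to estimate the spread, gave 1 between the types at day 15 in each condition, 5 on restimulation in Th1 at day 5, 0 in Th1 at day 15, 1 and 4 between the days in unstimulated Th17 and Th1, and 1 and 0 in the unstimulated and restimulated interactions of type with day. The replicate block gave 4 between the types at day 15 unstimulated, 5 and 0 on restimulation in Th1 at day 5 and day 15, 1 between the days in unstimulated Th17 and 0 in the restimulated interaction with day, and it moved no other count by more than 1.5 times. Where the numbers do not pair the samples, these block counts are not read as weaker effects. The erythroid covariate gave 0 in all 4 comparisons of the days, 1 between the types at day 15 restimulated, 0 on restimulation in Th1 at day 15, and 1 and 2 in the unstimulated and restimulated interactions with day. The myeloid covariate gave 1 between the types at day 15 restimulated and 2 on restimulation in Th1 at day 15. Genes above the median gave 1 and 2 on restimulation at day 15 in Th17 and Th1. Centring gave 1 between the days in unstimulated Th17, and cyclic loess 1 in the unstimulated interaction with day. Without Th17 sample 1 of day 5 the counts were 1 on restimulation in Th17 at day 5, 1 between the days in unstimulated Th17 and 0 in the restimulated interaction with day.

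With each array left out in turn, the types differed in 2 to 2 members at day 5 and 1 to 2 at day 15 unstimulated, and in 2 to 3 at both days restimulated. Restimulation counts were 1 to 3 and 0 to 1 in Th17 at day 5 and day 15, and 1 to 1 and 0 to 3 in Th1. Day counts were 0 to 2 unstimulated and 2 to 3 restimulated in both types. Interactions with day gave 0 to 1 unstimulated and 0 to 2 restimulated, and those with restimulation 0 to 0.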
